A study of Mus musculus with 8 samples.

Results

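Laminins are large cross-shaped glycoproteins of basement membranes, the thin sheets of matrix that underlie endothelium and epithelium. Each laminin molecule is a trimer of an α, a β and a γ chain that join through a coiled coil inside the cell before secretion, so a cell can only make the laminins for which it has all the chains. The α chain carries the C-terminal globular domains that integrins and dystroglycan bind, and the short arms of several chains link laminins into a polymer. Laminins with the α4 and the α5 chain are the ones best known from the basement membranes of blood vessels, whereas the α3 and β3 chains are best known from the laminin that anchors epithelia through hemidesmosomes.

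The genes of 9 laminin chains, Lama1, Lama2, Lama3, Lama4, Lama5, Lamb1, Lamb2, Lamb3 and Lamc1, were taken by symbol from a table of 55471 genes, and each symbol occurred in 1 row. Lamc3, the gene of the γ3 chain, was read beside them, which gives 10 chains. The table holds RNA sequencing counts of SV-LECs, a mouse lymphatic endothelial line that was immortalized with SV40 and derived from mesenteric adventitial tissue. The 4 untreated samples and the 4 samples given 10 ng/ml TGFβ1 for 72 h carry the same SV40 background, and no other agent or allele is named for either group. The study describes the 4 samples of a group as technical replicates of the line, so errors and p-values below cover the spread between these samples and not that between independent experiments.

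On GRCm38, GENCODE M21 places Lama1 (ENSMUSG00000032796) at chr17:67697259-67822647 on the + strand, Lama3 (ENSMUSG00000024421) at chr18:12333819-12583013 on the + strand and Lama5 (ENSMUSG00000015647) at chr2:180176373-180225859 on the - strand. Lama2 (ENSMUSG00000019899) and Lama4 (ENSMUSG00000019846) both lie on chromosome 10, at chr10:26980036-27619758 on the - strand and chr10:38965515-39110188 on the + strand. The β chain genes are Lamb1 (ENSMUSG00000002900) at chr12:31265234-31329644, Lamb2 (ENSMUSG00000052911) at chr9:108479736-108490530 and Lamb3 (ENSMUSG00000026639) at chr1:193207699-193343878, all on the + strand. Lamc1 (ENSMUSG00000026478) lies at chr1:153218922-153332786 on the - strand. All 9 are annotated as protein-coding, and counts are per gene, not per transcript.

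Total counts were between 18952504 and 26386941 per library. Values are given as CPM, read counts scaled to a common library size after TMM normalization, which corrects for differences in RNA composition. Depending on the library, 3 counts, taken as the floor, equalled 0.113 to 0.162 CPM, and this floor covers counting error only. Smad7 and Ccn2, genes known to respond to TGFβ, both rose, with log2 fold changes of 0.89 and 2.06. Markers that define the labelled cell type were in part absent. Of 16 endothelial and lymphatic markers, 9 had at most 5 counts in every library, among them Pecam1, Cdh5, Prox1, Lyve1 and Ccl21a, while Kdr, Flt1, Flt4, Eng and Pdpn were well above the floor. Fibroblast markers had a summed level of 7977 to 10317 CPM in untreated and 10372 to 11804 CPM in TGFβ1-treated libraries, most of it from Col1a1 and Col1a2. Of the 4 tested, Col1a1 rose while Pdgfra and Dcn fell, with log2 fold changes of -1.47 and -1.91, and the median log2 fold change was -0.78. The 8 smooth muscle and pericyte markers had summed levels of 895 to 959 CPM and 2201 to 2315 CPM, and all 7 that were tested rose. Myh11, 1 of these 7, had 2, 6, 11 and 3 counts in the untreated libraries. It passed the filter on low counts through the treated libraries, where it was high, so its place among the 7 carries that limit. Of the 4 endothelial markers that were tested, 3 rose and 1 was not called, with a median log2 fold change of 1.07. Of the 2 tested lymphatic markers, Flt4 rose, with a log2 fold change of 0.44, and Pdpn fell, with -0.13. For all these marker lists the background was 37.6% of all tested genes higher and 38.0% lower. Most laminin genes thus rose together with the smooth muscle and pericyte markers and with most tested endothelial markers. The part of these markers in the results on laminins was not tested. In a bulk sample fewer cells of a type and less RNA per cell cannot be told apart.

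After TGFβ1, 7 of the 9 laminin chain genes rose, Lama4 fell and Lamb2 did not pass the test. The test was the likelihood ratio test (LRT) of edgeR over 13818 genes, each fold change is given with its standard error (SE), and a gene was called at an FDR, adjusted by the Benjamini-Hochberg method, under 0.05. By the same rule 37.6% of all tested genes were higher and 38.0% lower, 75.6% in all, so that being called is common here and 8 of 9 members is to be read against that share. The groups did not overlap in 7 higher members and 1 lower member, against 34.7% of all tested genes on the higher side, 35.1% on the lower side and 69.8% in all. The median log2 fold change was 0.60 over the members and -0.01 over all genes tested. A log2 fold change above 1 was reached by Lama3 and Lamb3, that is by 2 of 9, with 10.9% of tested genes there, and no member was below -1, with 6.56% of tested genes there. Both genes had so few untreated reads that they passed the filter on low counts through the treated libraries, where they were high, so nothing about the members is read from that count. Lamc3 rose as well, with a log2 fold change of 2.09 (SE 0.472), and it too passed the filter through the treated libraries alone. The FDRs of Lama3, Lamb3 and Lamc3, and the place of Lama3 and Lamb3 among the 7 higher members, carry the same limit.

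**Figure D1:**
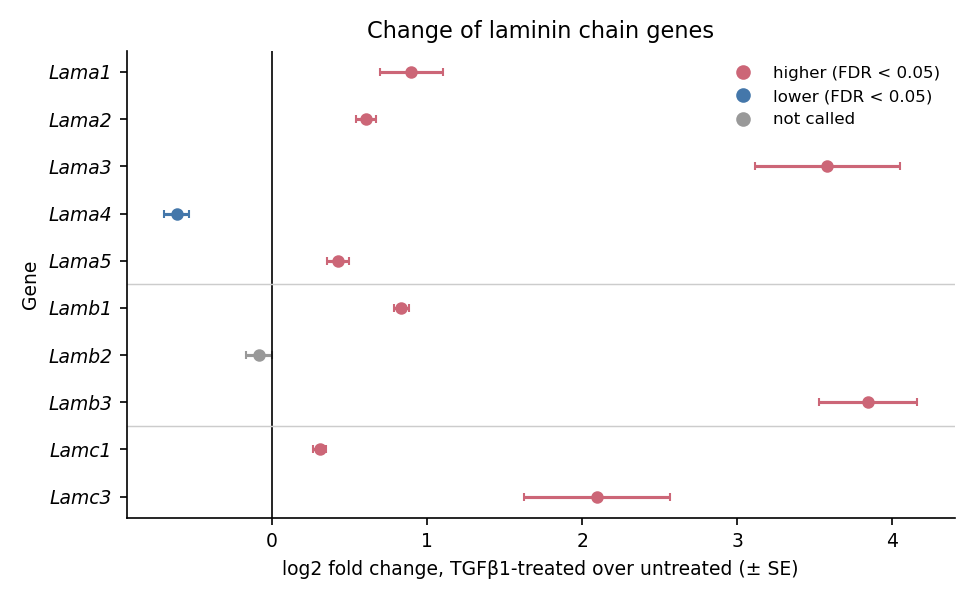
log2 fold change of each laminin chain gene, TGFβ1-treated over untreated, from edgeR (x axis), with bars for the standard error. Genes are grouped as α, β and γ chains from top to bottom. Lama3 and Lamb3 lie farthest to the right, at 3.58 and 3.84, Lama4 is the one gene called lower, at -0.62, and Lamb2 is grey at -0.08.

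The 3 β chain genes ranged from a gene that was not called to the largest rise among the members, and the bases before their transcription starts are given here for that reason. The sequences are from RefSeq on GRCm38 and run 5′ to 3′ towards the start site on the + strand, which is the coding strand of all 3 genes. Each begins 250 bases before the RefSeq start and ends where GENCODE M21 places the first exon of the gene within that window. Capitals mark CAGAC or its reverse complement, the core that SMAD proteins can bind.
Lamb3 (chr1:193301744-193301992): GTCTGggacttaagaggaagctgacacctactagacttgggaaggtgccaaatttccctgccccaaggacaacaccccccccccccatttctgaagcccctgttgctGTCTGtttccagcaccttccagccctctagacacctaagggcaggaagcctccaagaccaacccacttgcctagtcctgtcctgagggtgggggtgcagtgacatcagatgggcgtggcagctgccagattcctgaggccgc
Lamb1 (chr12:31265043-31265233): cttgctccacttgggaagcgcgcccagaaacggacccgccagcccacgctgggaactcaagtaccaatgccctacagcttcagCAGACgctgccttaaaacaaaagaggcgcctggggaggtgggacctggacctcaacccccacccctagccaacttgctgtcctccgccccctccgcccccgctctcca
Lamb2 (chr9:108479612-108479735): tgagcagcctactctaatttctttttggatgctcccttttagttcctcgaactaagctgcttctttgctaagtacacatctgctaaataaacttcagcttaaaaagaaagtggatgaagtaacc

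The Lamb3 window lies inside an intron of a longer GENCODE model of the same gene, and its printed bases hold CAGAC on the reverse strand 250 and 143 bases before the start. A later RefSeq start of Lamb3, whose window is not shown, has it once, 57 bases upstream. Lamb1 holds it once, on the forward strand, 167 bases before the start. Lamb2 holds it on the reverse strand at 123 and 100 bases before the start, in bases that GENCODE counts as exon and that are not shown. On both strands, the 250 bases before the start were searched in 5 members, these 3 genes, Lama2 and Lama5, and held CAGAC in each. Lama3 was left out of the search, and Lama1, Lama4 and Lamc1 had no RefSeq promoter entry. The same 5 letters occurred in 42.2% of 32851 RefSeq windows of that length. TGANTCA, the AP-1 core, was found in no window of the 5 searched members and in 6.75% of all windows. The GC box GGGCGG was found in Lama5 and Lamb1 and in 32.7% of all windows. No match of one motif overlapped a match of another in these windows. A match describes letters only, and Lamb2, which was not called, holds CAGAC as well.

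Among the α chains, Lama5 encodes the long α5 chain that is found in most adult endothelial basement membranes. Its level was 327, 287, 275 and 253 CPM in untreated libraries 1 to 4 and 394, 348, 393 and 398 CPM in the TGFβ1-treated libraries. Every treated library lay above every untreated one, by a log2 fold change of 0.42 (SE 0.0700, edgeR LRT FDR = 3.47e-09). Lama4 encodes the α4 chain, a truncated chain without a full short arm that is abundant under endothelium and in muscle. It was at 72.0, 81.8, 69.1 and 66.8 CPM in untreated and at 55.1, 43.96, 46.7 and 43.7 CPM in treated libraries. All treated libraries were thus below all untreated ones, and Lama4 fell by 0.62 on the log2 scale (SE 0.0808, edgeR LRT FDR = 9.22e-14).

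Lama2 encodes the α2 chain of muscle and peripheral nerve, whose loss causes congenital muscular dystrophy. Its CPM were 27.7, 25.7, 22.8 and 24.9 in untreated and 39.6, 39.1, 36.4 and 38.4 in treated libraries, a rise of 0.60 on the log2 scale (SE 0.0643, edgeR LRT FDR = 2.50e-20). The groups were apart, although 3.86% of the exonic bases of Lama2 overlap Gm48084 on the opposite strand, and the strand setting of the counting is not given in the sources used here. Lama1, the α1 chain of early embryos and some epithelia, had 17 to 27 counts in each untreated and 37 to 47 counts in each treated library. This corresponded to 1.06 ± 0.159 CPM and 2.02 ± 0.386 CPM (SD, n = 4 libraries per group), and the log2 fold change was 0.90 (SE 0.202, edgeR LRT FDR = 1.16e-05). The rise of Lama1 therefore stands on few reads, and its fold change is known less closely than that of Lama2 or Lama5.

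Lama3 encodes the α3 chain of epithelial laminins. It had 1, 6, 4 and 0 counts in untreated libraries 1 to 4 and 28, 41, 25 and 35 counts in the treated libraries, or 0.112 ± 0.106 and 1.52 ± 0.335 CPM (SD, n = 4 libraries per group). The groups did not overlap, and the gene went from around the floor to about an order of magnitude above it. Summed over the libraries of a group and scaled to their size, the ratio of treated to untreated counts was 12.4, with a 95% exact interval of 6.70 to 25.5 that covers counting error only. The estimated log2 fold change was 3.58 (SE 0.468, edgeR LRT FDR = 5.55e-24) and depended on the prior count that edgeR adds to low values: with a prior count of 2 it was 2.92. Without untreated library 2, which held the most Lama3 reads of that group, it was 4.17. Gm29200 overlaps 1.83% of the exonic bases of Lama3 on the opposite strand. Counts per gene do not part the short α3A form from the longer α3B form.

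Among the β chains, Lamb1 and Lamb3 rose and Lamb2 was not called. Lamb1, the β1 chain of the laminins that most cells make, was at 435, 436, 406 and 394 CPM in untreated and at 757, 784, 718 and 721 CPM in treated libraries. No library of one group came near the other, and the log2 fold change was 0.83 (SE 0.0478, edgeR LRT FDR = 2.48e-66). Lamb2 encodes the β2 chain of the neuromuscular junction, the kidney glomerulus and the walls of arteries. It was at 288, 274, 255 and 210 CPM in untreated and at 241, 217, 254 and 257 CPM in treated libraries, so that the groups overlapped. Its log2 fold change of -0.08 (SE 0.0840) did not pass the test (edgeR LRT FDR = 0.368). Untreated library 4 was decisive here: without it Lamb2 was called lower, by 0.17 on the log2 scale (edgeR LRT FDR = 0.010).

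Lamb2 and Lama5 transcripts are the richest in G and C among the 9 genes, with 58.8% and 59.9%. The untreated libraries also differed in how their values leaned with GC content, from a slope of 0.07 log2 units per 10% of GC in library 1 to -0.06 in library 4, the order in which Lamb2 and Lama5 declined. With these slopes as a covariate, an alternative chosen after the data were seen, Lamb2 was again not called (log2 fold change -0.08, edgeR LRT FDR = 0.0891). Lama5 was called higher with a log2 fold change of 0.43. The slopes were taken from deviations around the mean of each group, so this fit could hardly move the fold changes. It cannot address a difference in GC lean between the groups.

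Lamb3 encodes the β3 chain, which pairs with the α3 chain in epithelial laminin. Its counts were 6, 12, 5 and 1 in untreated and 85, 72, 74 and 100 in treated libraries, or 0.252 ± 0.166 and 3.91 ± 0.486 CPM (SD, n = 4 libraries per group). The treated libraries were all far above the untreated ones. The ratio of summed counts was 14.6 (95% exact interval 9.63 to 23.1, counting error only), and the log2 fold change of 3.84 was the largest among the members (SE 0.317, edgeR LRT FDR = 2.07e-59). Even after the rise, Lamb3 stayed a minor β chain gene, as the levels per length show.

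Lamc1 encodes the γ1 chain, which is shared by most known laminins and without which mouse embryos form no basement membrane. It was at 483, 490, 492 and 448 CPM in untreated and at 613, 594, 587 and 573 CPM in treated libraries. All treated libraries were higher, by a log2 fold change of 0.31 (SE 0.0430, edgeR LRT FDR = 2.80e-12), the smallest change among the called members. Lamc3 had 1 to 8 counts in untreated and 11 to 15 counts in treated libraries (edgeR LRT FDR = 7.85e-07). It passed the filter on low counts through the treated libraries alone. Of its read-length stretches, 5.08% are shared with Gm13441 on the opposite strand. Of the members, Lama2 and Lama3 shared stretches of 75 bases with another gene, both on the opposite strand, and the other 7 shared none.

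**Figure D2:**
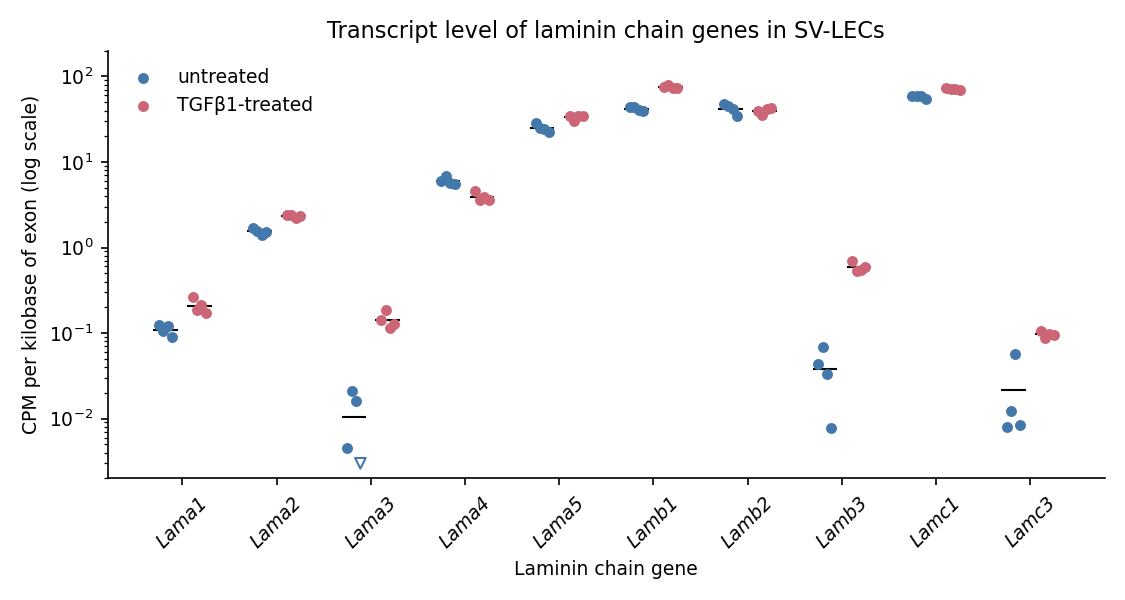
Level of 10 laminin chain genes in each library, as CPM per kilobase of merged exons on a log scale (y axis). Points are the 4 untreated and the 4 TGFβ1-treated libraries, black bars are group means, and the open triangle is a library with 0 counts placed at the bottom. Lamb1, Lamb2, Lamc1 and Lama5 lie between 22.2 and 79.0 in every library, far above Lama3, Lamb3 and Lamc3.

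Levels of different genes were compared per length, as CPM per kilobase of the merged exons of a gene. In untreated cells Lamc1 stood highest with 57.8 ± 2.47 CPM per kilobase, followed by Lamb2 with 42.2 ± 5.60 and Lamb1 with 42.1 ± 2.16, whose ranges overlapped (SD, n = 4 libraries per group). Lama5 came next with 25.1 ± 2.72 and was the main α chain gene, above Lama4 with 6.00 ± 0.545 and Lama2 with 1.55 ± 0.124. Lama1 was at 0.110 ± 0.0165, and Lamb3, Lamc3 and Lama3 followed at 0.0381, 0.0215 and 0.0104 with ranges that overlapped between neighbours.

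After TGFβ1 the order at the top changed. Lamb1 reached 75.1 ± 3.13 CPM per kilobase and its range overlapped that of Lamc1 at 71.5 ± 1.99, and both lay above Lamb2 at 39.8 ± 3.02 (SD, n = 4 libraries per group). Lama5 was at 33.6 ± 2.08, Lama4 at 3.93 ± 0.442 and Lama2 at 2.35 ± 0.0870. Lamb3 was at 0.591 ± 0.0736 and now exceeded Lama1 at 0.209 ± 0.0398, whose range overlapped that of Lama3 at 0.142 ± 0.0312. With the longest annotated transcript as the length in place of merged exons, Lamb1 was the highest gene in both groups, with 72.2 and 129 CPM per kilobase, so the place of Lamb1 in untreated cells depends on the length used.

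Shares within a chain class do not depend on how libraries were scaled. Lama5 made up 78.7%, 74.8%, 76.9% and 75.7% of the α chain transcripts in untreated libraries 1 to 4 and 82.4%, 82.6%, 84.3% and 84.8% in the treated libraries. Lama4 went from 18.4% ± 1.57 to 9.75% ± 0.873, and Lama2 from 4.74% ± 0.320 to 5.85% ± 0.444 (SD, n = 4 libraries per group). With the longest transcript as the length, Lama4 held 30.2% and 17.1%. For Lama5, Lama4 and Lama2 the groups did not overlap in share, also with the longest transcript as the length and with no length correction. The ratio of Lama5 to Lama4 per length was 4.19 ± 0.462 in untreated and 8.63 ± 0.873 in treated libraries, and lower in both groups with the longest transcript as the length, at 2.10 and 4.32.

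In the β class the share of Lamb1 grew at the expense of that of Lamb2. Lamb1 held 48.1%, 49.4%, 49.4% and 53.5% of β chain transcripts in untreated and 65.4%, 68.6%, 63.1% and 62.9% in treated libraries, and the groups were apart under each of the 3 length settings. Per merged exon length, the ratio of Lamb1 to Lamb2 within a library was 1.01 ± 0.0984 in untreated and 1.90 ± 0.232 in treated libraries (SD, n = 4 libraries per group). The balance in untreated cells depended on the length used: with the longest transcript the ratios were 1.60 and 3.01, and Lamb1 already held 61.4% of β chain transcripts in untreated cells. Lamb3 rose from 0.0436% to 0.511% of the class.

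**Figure D3:**
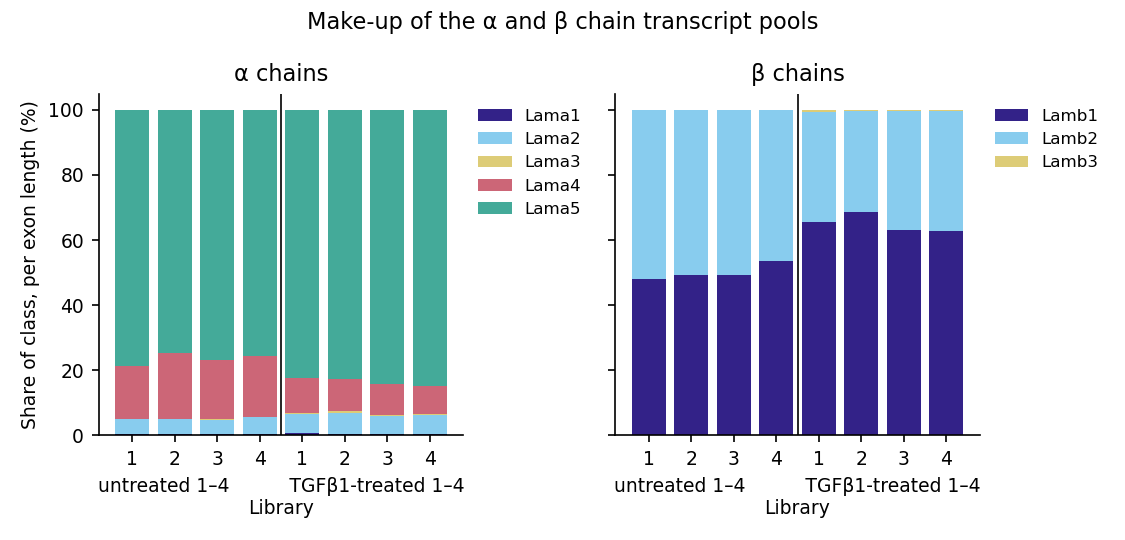
Share of each gene among the α chain transcripts (left) and the β chain transcripts (right) in every library, in percent after division by exon length. Bars 1 to 4 on each side of the vertical line are the untreated and the TGFβ1-treated libraries. The Lama4 segment shrinks from 16.3% to 20.1% in untreated to 8.79% to 10.9% in treated libraries, and the Lamb1 segment grows above 62% in all treated libraries.

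The chains present set which trimers could be assembled, as far as RNA can tell. Of 13 chain combinations known as laminin trimers, named by the numbers of their α, β and γ chains, 8 had more than 3 counts of every chain in every untreated library. These were laminins 111, 121, 211, 221, 411, 421, 511 and 521, which all hold the γ1 chain. In the treated libraries all 13 combinations passed, because Lama3 and Lamc3 exceeded that limit in every library. The combinations that passed only there were laminins 311 and 321, which need Lama3, and laminins 213, 423 and 523, which need Lamc3. Lamc3 had 12, 11, 12 and 15 counts in the treated libraries. Its mean there was 0.0968 CPM per kilobase of merged exons, the lowest of the 10 chains. Failing the limit does not show absence: Lama3 had 6 and 4 counts in untreated libraries 2 and 3, and Lamc3 had 8 in untreated library 3. The limit of 3 counts was a fixed choice, and passing it shows that the transcripts were detected and not that the protein was made or assembled.

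For each trimer the least abundant chain gene, per length, was read as a description of RNA only. Chain protein was not measured, and trimers with the same lowest chain share its transcripts. In the 10 combinations without Lamc3 the lowest chain was the α chain in both groups. It was the same gene in each of the 13 combinations under both lengths used. For laminins 511 and 521 the lowest chain was Lama5, at 25.1 ± 2.72 in untreated and 33.6 ± 2.08 CPM per kilobase in treated cells, whereas for laminins 411 and 421 it was Lama4, which went from 6.00 to 3.93. For laminins 311 and 321 it was Lama3 in both groups, at 0.0104 ± 0.00982 and 0.142 ± 0.0312 CPM per kilobase (SD, n = 4 libraries per group). The lowest chain of laminin 311 was thus higher after TGFβ1, at a level far under that of laminin 511. Among the 6 epithelial markers, Epcam, Cdh1 and Krt5 had at most 7, 21 and 4 counts in any library. Krt8 had 5, 6, 12 and 2 counts and Krt18 had 8, 3, 7 and 2 counts in untreated libraries 1 to 4. These 2 genes rose by 1.99 and 2.47 on the log2 scale to 1.11 and 1.24 CPM. Both passed the filter on low counts through the treated libraries, where they were high, so their rises carry that limit. Krt14 was not called (log2 fold change 0.07). The summed level of the 6 was 34.2 to 40.7 CPM in untreated and 38.2 to 45.2 CPM in treated libraries. Most of it came from Krt14, with means of 37.1 and 38.8 CPM. The part of these markers in the rise of Lama3 and Lamb3 was not tested.

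**Figure D4:**
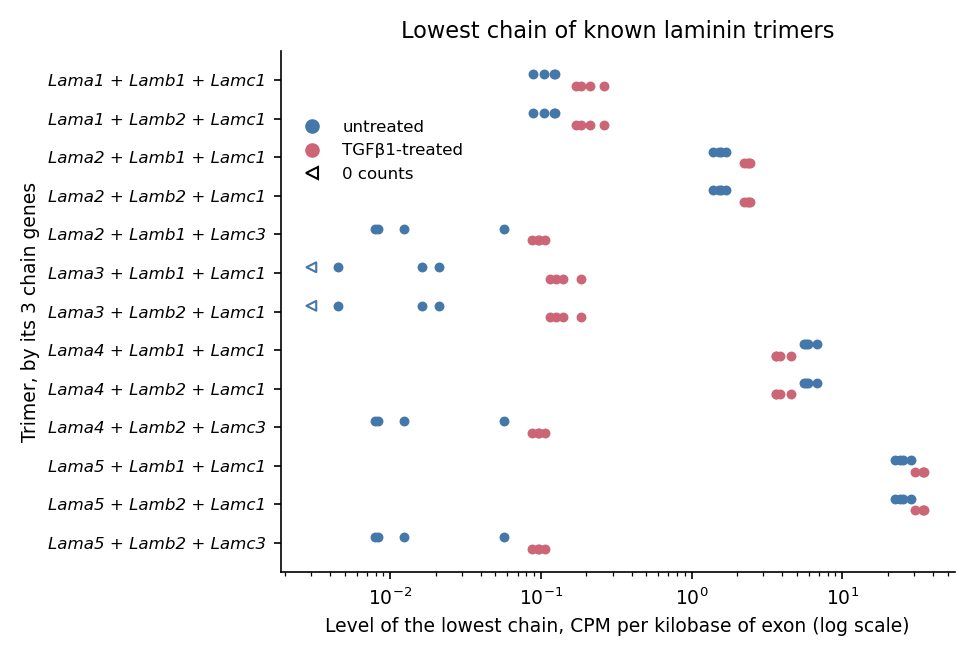
For each of 13 known laminin trimers (y axis, by its 3 chain genes), the level of the lowest of its chains in every library, in CPM per kilobase of merged exons on a log scale (x axis). Open triangles are libraries with 0 counts of a chain, placed at the left end. The combinations with Lama5, Lamb1 or Lamb2 and Lamc1 lie at 22.2 to 34.9, those with Lama4 and Lamc1 move left after TGFβ1, and those with Lama3 move right but remain under 0.2.

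Of 13 genes for other basement membrane components and proteins that bind them, 7 rose, 4 fell and 2 were not called, where 37.6% of all tested genes rose and 38.0% fell. Their median log2 fold change was 0.27. Col4a3, 1 of the 7 and named here for its few reads, had 6, 22, 6 and 8 counts in the untreated libraries. It passed the filter on low counts through the treated libraries, where it was high, so its place among the 7 carries that limit. Hspg2, which encodes perlecan, rose from 522 ± 46.9 to 1281 ± 80.3 CPM, and Agrn, whose product agrin binds the laminin coiled coil, rose from 261 ± 22.9 CPM in untreated to 560 ± 16.8 CPM in treated libraries (SD, n = 4 per group). The collagen IV gene Col4a1 rose by 0.27 on the log2 scale, whereas Col4a5 and Col4a6 fell by 0.35 and 0.61, and Sparc, a collagen-binding matricellular protein, fell by 0.26. The nidogens, which connect the γ1 chain with collagen IV and were singled out after their values were seen, went opposite ways. Nid1 was at 117 ± 7.41 CPM in untreated and 330 ± 11.3 CPM in treated libraries (SD, n = 4 libraries per group). Nid2 went from 195 to 227 CPM down to 89.6 to 105 CPM, and neither nidogen overlapped between the groups.

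Among 13 genes for laminin receptors and proteins bound to them, 4 rose, 8 fell and 1 was not called, against the same background of 37.6% and 38.0%, and the median log2 fold change was -0.28. Itgb4, whose product pairs only with the α6 integrin to form the hemidesmosomal laminin receptor, was at 41.9 ± 2.69 CPM in untreated and 219.6 ± 9.96 CPM in treated libraries, 2.39 higher on the log2 scale (SE 0.0541). Its partner Itga6 rose from 28.8 ± 1.73 CPM in untreated to 63.9 ± 5.19 CPM in treated libraries (SD, n = 4 per group), and Itgb1, the common β1 integrin, rose by 0.47 on the log2 scale. Itga3, which pairs with β1 to bind laminin 511, fell from 207 ± 6.00 to 139 ± 4.01 CPM. Dag1, which encodes dystroglycan, fell from 554 ± 11.2 to 371 ± 11.8 CPM, and Rpsa, a ribosomal protein that is also described as a laminin receptor, fell by 0.32 on the log2 scale. Itga2, a receptor subunit for collagens and laminins, was picked for its values. It had 0 to 6 counts in untreated and 87 to 134 counts in treated libraries. Its rise of 5.05 on the log2 scale was the largest change of the list. With so few untreated reads, Itga2 passed the filter on low counts through the treated libraries alone, where it was high. Its fold change and its place among the 4 that rose carry that limit.

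Of 6 proteases that can cut laminin chains or their relatives, 5 were tested, and 4 rose while 1 fell, where 75.6% of all tested genes were called. Bmp1, a metalloprotease that trims procollagens and laminin chains, rose by 1.95 on the log2 scale to a mean of 898 CPM, and its relative Tll1 rose from 6.32 ± 0.814 CPM in untreated to 24.0 ± 1.82 CPM in treated libraries (SD, n = 4 per group). Mmp14 and Mmp2, matrix metalloproteases, rose by 1.17 and 0.29 on the log2 scale. Htra1, a secreted serine protease, fell by 0.71 on the log2 scale. Tll2 had too few reads to be tested.

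**Figure D5:**
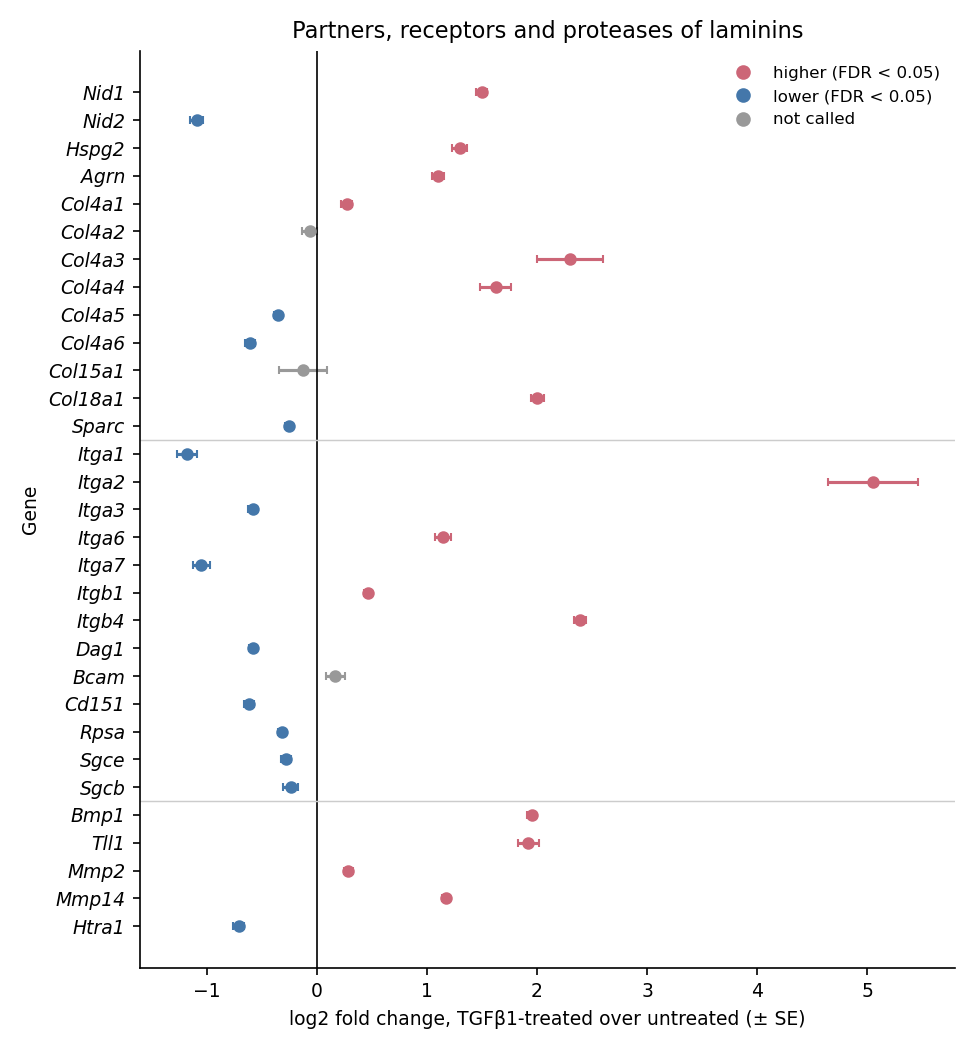
log2 fold change, TGFβ1-treated over untreated, from edgeR (x axis) with its standard error, for the tested genes of basement membrane partners (top block), laminin receptors (middle block) and laminin-cutting proteases (bottom block). Red, blue and grey mark genes called higher, called lower and not called. In the middle block Itga6 and Itgb4 stand to the right at 1.15 and 2.39, while Itga3 and Dag1 both stand to the left at -0.58.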

How the data were processed

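RNA of untreated and TGFβ1-treated SV-LECs was sequenced in 4 libraries per group from stranded poly(A) libraries with single-end reads of 75 bases. The authors deposited raw counts of reads per gene, mapped to GRCm38; the submitters' processing notes name STAR 2.7.3a and featureCounts 1.5.1, and the annotation release and strand setting are not given in the sources used here. Of the 55471 genes, 55230 matched GENCODE M21, which gave positions, merged exon lengths, GC content and overlaps.

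In edgeR 4.0.16 (R 4.3.3), the counts went through filterByExpr on the groups, TMM scaling, and glmFit with glmLRT as in the study's methods, with Benjamini-Hochberg FDRs over the 13818 genes tested. Standard errors came from the fitted model. Alternatives were the quasi-likelihood test, DESeq2 1.42.0 and other scalings, filters, prior counts and sets of libraries. The script was tested on simulated data. Pairs of libraries within groups differed by more than sampling noise (chi-square per degree of freedom 2.37 to 7.84).

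The members and gene lists were chosen with earlier results of these data known. All members were named; lists of up to 6 genes could be named in full, and longer lists by the 3 genes with the highest level called in each direction. Some genes and the γ chain shares are not reported here.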

Additional observations from a re-analysis of the deposited data

Results flagged for a closer look

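Lama5 in the TGFβ1-treated libraries was set apart by a single value: library 2 had 348 CPM against 393 to 398 CPM in the others, a gap that took up 0.893 of the range of the group, above Dixon's 95% critical value for 4 samples. Chance gives such a gap in about 1 group in 20, and 28 groups of values were examined. The library had the lowest GC slope of its group, -0.05 log2 units per 10% of GC, and Lama5 transcripts have 59.9% GC; the part of this slope in the gap was not tested. Without that library the log2 fold change of Lama5 was 0.47.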

How the results depend on the processing

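Of 153 alternative values for the fold changes of the 9 members, 152 kept the direction and the side of the threshold; the exception was Lamb2 without untreated library 4. The numbers of members called were 7 higher in every alternative, and lower 1 to 2 with single libraries left out. The fold change of Lama3 ran from 2.92 to 4.17 and that of Lamb3 from 3.48 to 4.32 on the log2 scale, the lowest with a prior count of 2 and the highest without untreated library 2; few untreated reads limit both. Total-count scaling moved the median of all genes from -0.01 to -0.07. No pairing of same-numbered libraries of the 2 groups is stated. Correlations of their deviations were -0.19 to -0.03, none of 4 best with its own number, which cannot show whether a small pair effect existed. A replicate block gave 5075 higher and 5077 lower genes against 5198 and 5251 without it, with the members' calls unchanged at 7 and 1.

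Shares depended on gene length, in each case given for untreated and then treated cells. With the longest transcript, Lama5 held 62.9% and 73.4%, Lama4 30.2% and 17.1%, Lama2 6.62% and 8.74%, Lamb1 61.4% and 74.6%, and Lamb2 38.6% and 25.0% of their class. With no length correction, Lama5 held 74.2% and 81.1%, Lama2 6.59% and 8.15%, Lamb1 62.1% and 75.1%, and Lamb2 37.9% and 24.5%.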

Other observations

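Netrins, which carry the N-terminal domain through which laminins polymerize, were read as relatives of the chains. Of the 3 of 6 that had enough reads to be tested, 2 rose, where 37.6% of all tested genes rose and 75.6% were called. So few genes say nothing about netrins as a family. Ntn1 rose from 7.01 ± 0.831 to 50.6 ± 3.59 CPM (log2 fold change 2.85, SE 0.0867), and Ntn4, which binds the γ1 chain and can break up laminin networks, rose from 16.0 ± 2.50 to 42.6 ± 1.53 CPM (log2 fold change 1.42, SE 0.0835; SD, n = 4 libraries per group). Ntn3 was not called (log2 fold change 0.09).

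Across the 8 libraries, the genes whose log2 CPM followed Lamb3 most closely were Zfp469, Timp3 and Plekhg3 (Pearson's r = 0.997, 0.996 and 0.996), and those closest to Lama4 were Gys1, Adamts9 and Gm36401 (r = 0.994, 0.990 and 0.990). An r above 0.95 was shared by 1298 genes for Lamb3 and by 364 for Lama4, since the difference between the groups sets most of it; Lamb3 in untreated libraries rests on 1 to 12 counts.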
